A study of Homo sapiens with 6 samples.

Results

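The subject here is the unperturbed transcriptome of TE-10, an established human line of squamous carcinoma of the esophagus, and the map of N6-methyladenosine (m6A) on its transcripts. Members were chosen by a deposited value of at least 1 in the RNA-seq library of control cells, which 11638 of 18224 listed gene symbols (63.86%) reached. They were joined by gene symbol to the deposited list of 15940 m6A peaks, of which 10694 were annotated to a coding exon, a 5'UTR or a 3'UTR of a transcript. Of these, 8019 belonged to members.

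The series holds 6 samples, and 4 were used: the RNA-seq library of cells labelled with normal METTL3 (n = 1), and from the same genotype 1 input library and 2 libraries immunoprecipitated with m6A antibodies. The antibody labels of the 2 immunoprecipitations carry different catalogue numbers. METTL3 is the catalytic subunit of the m6A writer complex, and the 2 libraries of cells in which it was stably knocked down with hairpin RNA were not used. The title of the series links METTL3 and m6A to Notch signalling in esophageal cancer. The labels do not say whether the control cells carried a hairpin without a target, nor whether the immunoprecipitations were pooled before peaks were called. RNA was polyadenylated and libraries were stranded. With 1 library and 1 peak list there was no replicate spread, so every comparison below is a description without a test, and intervals on shares of genes (95%, Wilson) cover counting error only.

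The expression value has no stated unit. The control column summed to 608291, values have 2 decimals and are not whole counts, and sequencing depth is unknown. Among values between 0 and 0.1, 47.93% of 1331 genes with a genomic span of at least 10000 bases were at 0.01 to 0.03, against 1 of 11 genes with a span of 1000 to 1300 bases, and 6 of those 11 were at 0.04. The lowest steps were thus larger in short genes, but scaling per length was not stated. Levels of different genes are therefore given as deposited values. The peak list carries no score or fold enrichment, so a gene either has a listed peak or has none, and a transcript without one may still be methylated.

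m6A is the most frequent internal modification of mRNA. It is written in the nucleus by METTL3 with METTL14 and adaptor proteins, can be erased by FTO and ALKBH5, and is read by YTH-domain proteins, which promote decay or translation of the marked transcript. It lies mostly in long internal exons, around stop codons and in 3'UTRs. Immunoprecipitation with an m6A antibody also captures m6Am, a related mark on the nucleotide next to the cap of transcripts that start with A.

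The starts of 6 genes are shown because 24 of the 25 most abundant transcripts of TE-10 had no listed peak, and 4 of the 6 genes at 1000 and above that did have a peak had it in the 5'UTR. Each line runs 5' to 3' on the strand of the gene, from 10 bases before the RefSeq start (build GRCh38.p14) over the first 12 bases of the transcript, with the first 5 transcribed bases in capitals. The first 3 are the highest ribosomal protein genes with a single listed start. The last 3 are the highest genes with a single listed start and a 5'UTR peak within 200 bases of the start used by the peak list. That start can differ from the RefSeq start shown.
RPLP1, chr15:69452808-69452829, plus strand, 0 peaks: ggcgcgagagCCCCTttcctca
RPL41, chr12:56116623-56116644, plus strand, 0 peaks: cttcgcctttCTCTCggcctta
RPLP0, chr12:120201100-120201121, minus strand, 0 peaks: ggcgcgaggcCCTTCtctcgcc
HSPB1, chr7:76302663-76302684, plus strand, 1 peak in the 5'UTR: ccagcgccccGCACTtttctga
MT2A, chr16:56608574-56608595, plus strand, 1 peak in the 5'UTR: gctgcactccACCACgcctcct
BANF1, chr11:66002493-66002514, plus strand, 1 peak in the 5'UTR: agaaagttctAGTGGcttgagg
The ribosomal starts begin with C and a run of C and T, the pyrimidine tract by which mTOR signalling is known to control translation of these mRNAs. The starts of HSPB1, a small heat shock protein, MT2A, a metallothionein, and BANF1, a DNA-binding protein of the nuclear envelope, begin with G, A and A. How far this holds over all genes is given after the gene classes.

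Markers of basal squamous epithelium were high in TE-10, and so were those of simple epithelium. All 4 markers given for the line were high: the basal and stress keratin KRT17 was at 1171.05, the calcium-binding protein S100A2 at 1127.92, the cyclin CCND1 at 245.47 and the lineage factor SOX2 at 160.64. KRT17 and S100A2 ranked 85 and 91 of all symbols. Of 20 basal squamous markers, which include KRT17, S100A2 and SOX2, 19 were at 1 or more and 15 at 20 or more, with a median of 58.02. These lists were chosen with earlier results of these data known, so their levels describe the line and are no independent test of its identity. KRT5 was at 633.07 and its partner keratin KRT14 at 449.63. TP63, the master regulator of squamous lineages, was at 31.89. The wound-response keratin KRT6A stood at 887.74, with reads that near-identical KRT6B and KRT6C could share. Anchoring proteins of the basement membrane were present too, with ITGB4 at 116.24 and COL17A1 at 84.86. PDPN, at 0.93, was the single basal marker under 1.

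Terminal squamous differentiation was represented in part. Of 19 listed markers, 13 were at 1 or more and 5 at 20 or more, with a median of 4.97. The cornified envelope precursors SPRR1B (169.72) and SPRR1A (48.91) and the inflammatory S100A9 (92.92) were the highest. KRT10 (27.36) and SERPINB3 (21.79) were also at 20 or more, and SPRR3 (18.6), KRT13 (7.35) and KRT4 (4.81) were lower. Involucrin (IVL, 0.04), loricrin (LOR, 0) and the suprabasal skin keratin KRT1 (0.09) were at or near 0. The others under 1 were KLK6 (0.48), TGM3 (0.14) and FLG (0.05). Keratins of simple epithelium were abundant beside the basal ones, and all 10 simple epithelial markers were at 1 or more and 8 at 20 or more, with a median of 104.6. KRT19 was at 509.45, KRT8 at 450.52, KRT18 at 281.8 and the adhesion molecule EPCAM at 179.08.

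Most markers of columnar epithelium, leukocytes and endothelium were close to absent. Of 20 columnar and glandular markers, 13 were listed in the control column. Of these 13, 5 were at 0 and the median was 0.04. AGR2, a secretory disulfide isomerase, was the exception at 84.71, followed by the transcription factor GATA6 at 4.05. Among 15 leukocyte markers 6 were at 0, the pan-leukocyte gene PTPRC was at 0.17, and the lysosomal CD68 (18.81) alone was above 1. All 10 endothelial markers lay between 0.01 and 0.59, and none of 6 listed melanocyte markers reached 1. Of 20 mesenchymal markers 9 were at 1 or more, led by vimentin (VIM, 87.02) and SNAI2 (19.64), while the fibroblast collagens COL1A2 (0.02) and COL3A1 (0.03) were near 0. TUBB3 (45.1), ENO2 (20.7) and MAP2 (1.78) were the 3 of 10 neural markers above 1.

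**Figure D1:**
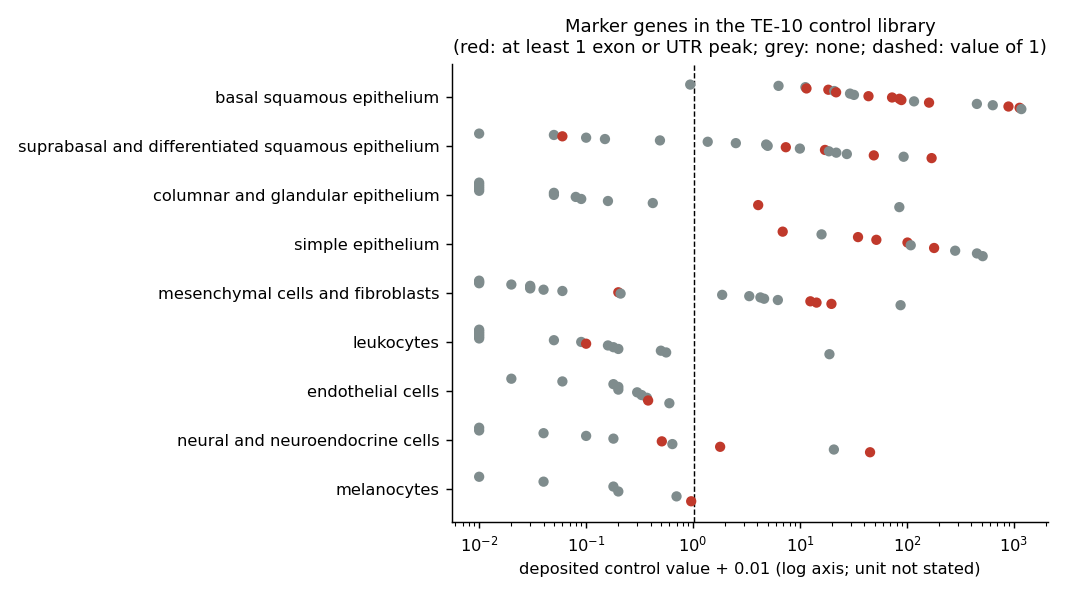
Each point is 1 marker gene, placed by its deposited value plus 0.01 in the single control library (log axis, unit not stated), in 9 lists of cell type markers; red points have at least 1 exon or UTR peak, grey points none, and the dashed line marks a value of 1. Basal squamous and simple epithelial markers lie almost wholly to the right of the line, endothelial and melanocyte markers wholly to its left.

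Identity genes differed in whether a peak was listed for them. At least 1 exon or UTR peak was listed for 10 of the 19 basal markers at 1 or more. All members together had a peak in 5065 of 11638 cases, 43.5% (interval 42.62 to 44.42), or 47.1% once older gene symbols in the peak list were replaced by current ones. KRT17, KRT5, KRT14 and TP63 had none. S100A2 had 1 peak in the 5'UTR (chr1:153538154-153538361, coordinates as the peak list gives them, on a build that is not GRCh38), 49 bases from the annotated start. CCND1 had 1 in the 5'UTR (chr11:69455873-69456127). SOX2 had 2, a 5'UTR peak (chr3:181429666-181429936) and an exon peak (chr3:181430211-181431388). The exon peak was 1177 bases wide, against a median of 330 over all exon and UTR peaks of the list. The neurotrophin receptor NGFR (43.61) had 3 peaks and the basal transcription factor BNC1 (11.47) had 4. Some markers without an exon or UTR peak had peaks elsewhere: DST, a linker of the hemidesmosome, had 3 in introns.

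Transcripts at the top of the profile almost all lacked peaks. The 25 highest genes held 18.42% of the summed value, and 1 of them had an exon or UTR peak. RPS2, a protein of the small ribosomal subunit, was highest at 15009.34. FTH1, the ferritin heavy chain that stores iron, followed at 8491.03 and was the 1 with a peak, in its 5'UTR (chr11:61734955-61735159). Its partner FTL (3899.4) had none. Nor did the glycolytic enzyme GAPDH (6857.04), the actin-sequestering peptide TMSB10 (5305.58) or the chromatin-associated PTMA (2617.64). Of the rest, 18 were cytosolic ribosomal protein genes and 1 was MTRNR2L2 (2571.04), a nuclear copy of a mitochondrial sequence whose value is uncertain because reads of the mitochondrial gene could be counted there. RPS15A and RPL4 had 1 intron peak each and RPL11 had 1 upstream of its start.

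Of the 100 highest genes, which held 37.22% of the sum, 62 were cytosolic ribosomal protein genes, 4 glycolytic enzymes, 3 S100 proteins and 3 actins or tubulins. A peak was listed for 6 of these 100. They were FTH1, the ribosomal protein RPS24 (1993.25, coding exon), HSPB1 (1665.07, 5'UTR), the elongation factor EEF1G (1500.47, coding exon), S100A6 (1131.95, 5'UTR) and S100A2. Next in order among genes with a peak came MT2A (966.27), KRT6A (887.74), BANF1 (824.11) and CAPNS1 (772.54), the small calpain subunit, and each of these 4 had its peak in the 5'UTR.

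The share of genes with a peak differed with their level. It was 46.15% of 3441 genes at 1 to 5 (interval 44.49 to 47.82), 48.65% of 4273 at 5 to 20, 40.41% of 3029 at 20 to 100, 21.16% of 794 at 100 to 1000 (18.46 to 24.14) and 5.941% of 101 at 1000 and above (2.751 to 12.36). Genes with a peak had a median value of 9.51 and genes without one a median of 12.64, and the former held 21.54% of the summed value of all members. Across members, Spearman's rho between the value and the number of peaks was -0.126 (n = 11638), and -0.172 over the 5065 genes with a peak; all points share 1 library and 1 peak list. With every gene above 0 included, the coefficient for all genes was 0.181. Of the genes under 1, 10.26% had a peak. The order of shares from 5 upwards was the same with peaks of any location and with older symbols replaced. The range at 1000 and above was mostly cytosolic ribosomal protein genes, which were 62 of the 100 highest genes.

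Genomic span differed in both directions between genes with and without a peak at like levels. Its median was 43263 bases with a peak and 47253.5 without one at 1 to 5, 21541 and 20051.5 at 20 to 100, and 11760 and 9939 at 100 to 1000. Span itself was shorter at higher levels, and the part of transcript length in the shares was not tested, as exon lengths were not used here.

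**Figure D2:**
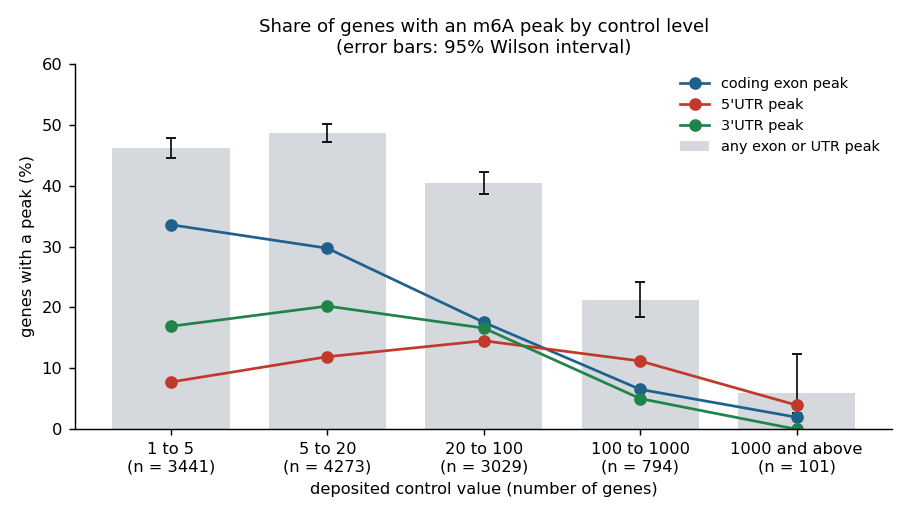
Bars give the percentage of genes with any exon or UTR peak in 5 ranges of the deposited control value, with 95% Wilson intervals, and lines the percentage with a peak in a coding exon, 5'UTR or 3'UTR. The bars go from 48.65% at 5 to 20 down to 5.941% at 1000 and above, the exon line goes down from 33.57% to 1.98%, and the 5'UTR line is highest at 20 to 100.

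Location of the peak changed with level as well. Of the 8019 peaks in members, 4250 (53%) lay in coding exons, 2407 (30.02%) in 3'UTRs and 1362 (16.98%) in 5'UTRs. An exon peak was listed for 25.9% of members, a 3'UTR peak for 17.1% and a 5'UTR peak for 11.2%. Exon peaks were found in 33.57% of genes at 1 to 5 and 6.549% at 100 to 1000. For the 5'UTR the same shares were 7.759% and 11.21%. Accordingly, 5'UTR peaks were 10.45% of peaks in the lowest range and 46.11% at 100 to 1000. The 737 genes with 5'UTR peaks alone had a median value of 19.73, against 7.045 for 2028 genes with exon peaks alone and 12.11 for 1138 genes with 3'UTR peaks alone. Over the whole peak list, peaks were narrower in the 5'UTR (median 246 bases) than in exons (356) or 3'UTRs (349).

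Most marked genes had a single peak: 3119 had 1, 1285 had 2, and 661 (5.68% of members) had at least 3. The median value was 11.54 for genes with 1 peak, 7.59 with 2, 7.26 with 3 and 6.09 with 4. The most peaks were listed for AHNAK2 and FAT1. AHNAK2 (3.88), a scaffold protein, and FAT1 (5.49), an atypical cadherin, had 13 each. The cytolinker plectin (PLEC, 11.44) had 10, and the histone methyltransferase SETD1B (3.51) and the lipid-sensing receptor PPARA (7.08) had 8 each. FAT2 (1.75), the DNA repair scaffold SLX4 (2.17) and the vesicle-trafficking scaffold ERC1 (3.22) had 7 each. In PPARA 6 of the 8, and in ERC1 all 7, lay in the 3'UTR. Of 19 genes with 6 peaks, TSC22D1 (31.17) and DIDO1 (15.53) had the highest values.

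Members were also grouped into 48 classes by symbol, which together held 1811 genes and 45.49% of the summed value. The share of a class with a peak can be read against 43.5% for all members and against the share of all members drawn from the same level ranges in the same proportions, called the share at its levels. Both comparison shares include the class itself. The class share was above that of all members in 29 classes and below it in 19, and it was above its own level's share in 30. Over the 48 classes Spearman's rho between median value and share with a peak was -0.566; classes differ in size and share the same library.

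**Figure D3:**
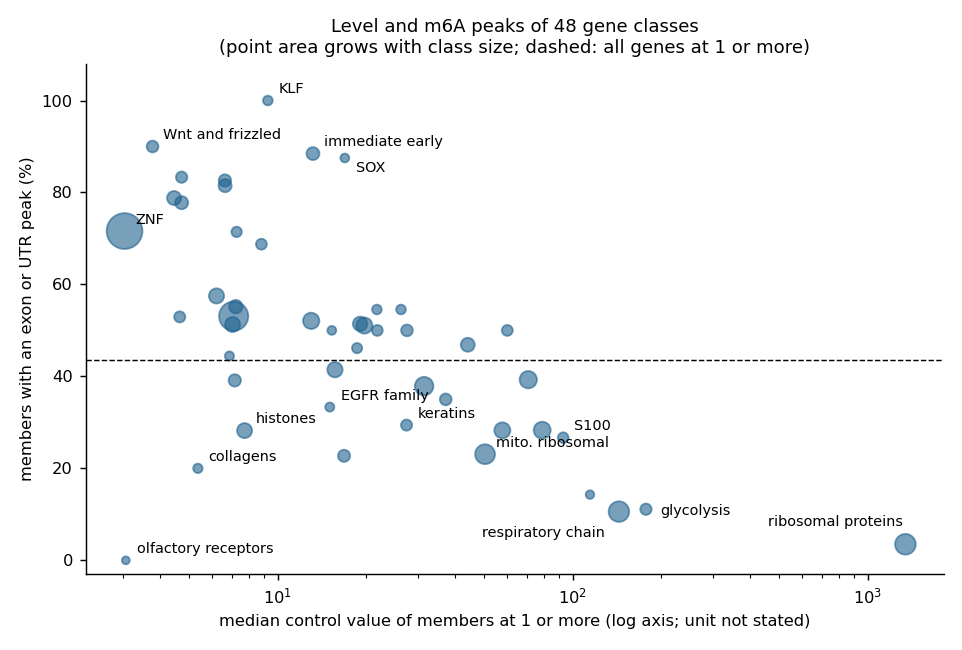
Each point is 1 of 48 gene classes, placed by the median deposited value of its members at 1 or more (log axis, unit not stated) and by the percentage of them with an exon or UTR peak; point area grows with the number of members and the dashed line is the share of all genes at 1 or more. Ribosomal proteins sit at the lower right with a median of 1342 and 3.488%, and Krueppel-like factors at the top with 100%. Olfactory receptors (5 members), histones (39) and collagens (10) lie low at low levels. Their intervals are wide and are not drawn here.

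Cytosolic ribosomal proteins were the most abundant class and nearly free of peaks. Their 86 genes had a median of 1342 and held 26.37% of the summed value of the column. A peak was listed for 3 (3.488%, interval 1.193 to 9.761), against 11.47% for all genes at those levels: RPS24, RPL36AL (606.94) and RPL7L1 (53.8), of which the last 2 are paralogs of the canonical proteins. The share at those levels counts the class itself, which made up 62 of the 100 highest genes. With intron and flanking peaks counted, 15.12% of the class had a peak. Many processed pseudogenes resemble these genes, so their single values, and whether reads and peaks are assigned to the right copy, are uncertain.

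Protein synthesis also draws on translation factors, tRNA synthetases and the ribosome of mitochondria. Among 53 translation initiation and elongation factors 15 (28.3%) had a peak, against 33.1% at their levels. A 5'UTR peak was listed for 8 of the 53, and for 11.2% of all members. EEF1A1, which brings aminoacyl-tRNA to the ribosome, was highest at 2030.91 and had none, while EEF2 (538.37), which moves the ribosome along, had 1. Of 20 cytosolic aminoacyl-tRNA synthetases 7 had a peak (35%, interval 18.12 to 56.71; 40.13% at their levels). The 78 mitochondrial ribosomal proteins, with a median of 50.49, had a peak in 18 (23.08%) against 37.34% at their levels. Those 18 had it in an exon or the 3'UTR, and none had a 5'UTR peak, against 11.2% of all members. MRPL51 (238.52) was the highest without a peak and MRPS34 (213.53) the highest with one.

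Energy metabolism was represented by respiratory and glycolytic genes. Of 85 nuclear-encoded respiratory chain subunits, with a median of 143.5, 9 (10.59%, interval 5.671 to 18.91) had a peak, against 27.11% at their levels. COX8A (1159.25), of cytochrome oxidase, had none, and UQCRH (460.99), of complex III, had 1. The count was 12 with older symbols replaced. Glycolytic enzymes had a median of 177.2 and 2 of 18 had a peak (11.11%, interval 3.102 to 32.8; 27.57% at their levels). The 2 were sugar kinases, HK2 (8.77) with 3 peaks and PFKP (50.45) with 1. Both had a peak in the 5'UTR, as had 11.2% of all members. ALDOA (1587.48), PKM (1292.42), TPI1 (1283.55), ENO1 (902.67) and LDHA (512.53) had none. The class held 2.275% of the column's sum with GAPDH and 1.147% without it.

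Classes of protein turnover and RNA processing had intervals that held the share at their levels, as did the ubiquitin-specific proteases and RNA helicases given further on. A peak was listed for 13 of 46 proteasome subunits and assembly factors (28.26%; 34.61% at their levels), 15 of 32 ubiquitin-conjugating enzymes (46.88%; 38.52%), 25 of 66 heat shock proteins and chaperonins (37.88%; 38.64%) and 22 of 56 splicing proteins (39.29%; 34.97%). Within the chaperones the stress-inducible HSPA1A (256.15) and HSPA1B (95.74), which are near-identical copies, had 3 peaks each. Constitutive HSPA8 (368.91) and HSP90AB1 (469.98) had none. The chaperonin subunits TCP1, CCT2, CCT3, CCT4, CCT5, CCT6A, CCT7 and CCT8, which fold actin and tubulin, had none either, at values between CCT2 (67.81) and CCT7 (186.72).

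Transcription factor families stood at the other end. All 11 Krueppel-like factors at 1 or more had a peak (interval 74.12 to 100), against 46.47% at their levels. KLF5, a regulator of squamous and gut epithelium, was highest at 48.14, and KLF4 (9.27), which drives barrier differentiation, had 4. SOX factors had a peak in 7 of 8 (87.5%; 41.5% at their levels), with SOX15 (61.98) the exception. The shares were 82.61% of 23 forkhead factors, 81.48% of 27 HOX factors and 78.79% of 33 BTB zinc finger proteins, against 45.98%, 46.9% and 46.71% at their levels. FOXM1, the mitotic forkhead factor and the highest of its family at 157.91, had none, while FOXK2 (70.81) had 3 and FOXO3 (6.87) had 5. HOXC10 (66.5) was the highest HOX gene and had 2. The intervals of these 5 families lay above the share at their levels.

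The ZNF zinc finger genes were the largest class. Their 310 members were low, with a median of 3.03 and 0.361% of the sum, and 222 had a peak (71.61%, interval 66.35 to 76.34) against 46.34% at their levels. An exon peak was listed for 176 of them, a 3'UTR peak for 92 and a 5'UTR peak for 30. Over all members these shares were 25.9%, 17.1% and 11.2%. At least 3 peaks were listed for 50 (16.13%), against 5.68% of all members. ZNF358 (68.75) was the highest with a peak and ZNF385A (75.29) the highest without. Zinc finger genes of 1 cluster share similar sequence, so assignment of reads and peaks among them is uncertain.

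Immediate early genes, which are switched on within minutes of a stimulus, had a peak in 23 of 26 (88.46%; 44.26% at their levels). IER3 was highest at 285.74, MYC (25.72) and EGR1 (22.31) had 3 peaks each, and JUN (13.7) and JUNB (58.22) had 2. FOSL1 (23.59), CYR61 (21.25) and DUSP2 (1.75) had none. This list shares KLF4, KLF6 and KLF10 with the Krueppel-like factors. Of 20 Wnt ligands and frizzled or LRP receptors, 18 (90%; 46.04% at their levels) had a peak, WNT2B (4.2) and WNT10B (2.4) being the others, and the receptor FZD1 (15.83) had 4. The ligand WNT7B was highest at 89.76.

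Among 27 TGF-beta and BMP ligands, receptors and SMADs, 21 (77.78%; 45.34% at their levels) had a peak, with 5 in the receptor BMPR2 (3.86) and 4 in the ligand TGFB2 (2.72); the ligand TGFB1 was highest at 99.3. Notch receptors, ligands and HES/HEY effectors had a peak in 10 of 14 (71.43%, interval 45.35 to 88.28; 45.99% at their levels). NOTCH1 (3.94) and NOTCH2 (4.15) had 3 each, the ligands JAG1 (10.97) and JAG2 (28.27) 2 each, and the effector HES1 (48.44) 2. HES4 (33.2) and HES6 (6.96) had none. EGFR family genes had a peak in 3 of 9 (33.33%, interval 12.06 to 64.58; 45.07% at their levels). EGFR (20.87), ERBB2 (20.98) and the ligand AREG (58.25) had none, while TGFA, ERBB3 and HBEGF had 1 each.

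Surface and structural proteins of the epithelium were mixed. Cadherins, protocadherins and their FAT and CELSR relatives had a peak in 15 of 18 (83.33%, interval 60.78 to 94.16; 45.57% at their levels), with 3.4 peaks per marked gene against 1.742 or fewer in each level range. E-cadherin (CDH1, 51.65) and P-cadherin (CDH3, 88.54) had 2 each. Integrins and desmosome proteins had 6 of 11 each (54.55%, interval 28.01 to 78.73), against 40.2% and 40.66% at their levels. Laminins had 4 of 8 (50%, interval 21.52 to 78.48; 45.25%) and claudins 4 of 9 (44.44%, interval 18.88 to 73.33; 38.02%). ITGB1 (301.05) and the desmosomal plakoglobin JUP (191.51) had none, while desmoplakin (DSP, 6.14) had 4. Of 10 collagens 2 had a peak (20%, interval 5.668 to 50.98; 46.58% at their levels), COL17A1 of the hemidesmosome and the fibrillar COL5A1 (2.99), and the median value of the class was 5.37.

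Keratins and S100 proteins followed their levels. A peak was listed for 5 of 17 keratins (29.41%; 33.89% at their levels) and 4 of 15 S100 proteins (26.67%; 31.01%). In both classes 4 genes had a 5'UTR peak, while 11.2% of all members and 14.53% of those at 20 to 100 had one. Among the S100 proteins the 4 were S100A6, S100A2, S100A16 (429.07) and S100P (35.81). S100A11, the highest at 1568.46, had none. KRT80 (106.62), a type II epithelial keratin, had 2. Among cornified envelope precursors 6 of 13 had a peak (46.15%, interval 23.21 to 70.86; 38.35% at their levels).

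Immune genes were described in 3 classes, whose intervals held the share at their levels. Of 22 interferon-induced genes 5 (22.73%, interval 10.12 to 43.44; 39.8% at their levels) had a peak, and the antiviral membrane protein IFITM3, highest at 1629.8, had none. HLA class I genes and beta-2 microglobulin had a peak in 1 of 7 (14.29%, interval 2.568 to 51.31; 28.66% at their levels), HLA-F (19.42). B2M (849.83) and HLA-B (114.53) had none, and reads of HLA genes are hard to assign among alleles and paralogs. Chemokines, interleukins and interleukin receptors had 9 of 23 (39.13%, interval 22.16 to 59.21; 44.1% at their levels). The neutrophil chemokine CXCL1 (646.86) had a peak in its 5'UTR.

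Histones had a median of 7.73 in this polyadenylated RNA, and 11 of 39 had a peak (28.21%, interval 16.54 to 43.78; 41.08% at their levels). Replication-dependent histone mRNAs normally end without a poly(A) tail, and copies within the clusters are near-identical. Histone lysine methyltransferases and demethylases had a peak in 20 of 39 with symbols as written (51.28%, interval 36.2 to 66.13), against 46.49% at their levels. With older symbols replaced, 28 (71.79%) had a peak, against 47.1% of all members. The change came from 8 genes listed under former names, such as KMT2A (4 peaks under MLL) and NSD3 (3 under WHSC1L1). Another 10 peaks stood under MLL2, a former name shared by more than 1 gene, and were not assigned. All 5 olfactory receptors at 1 or more lacked an exon or UTR peak (interval 0 to 43.45), against 46.65% with one at their levels. With intron and flanking peaks counted, 1 of the 5 had a peak. The other 64 of 69 listed were under 1.

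**Figure D4:**
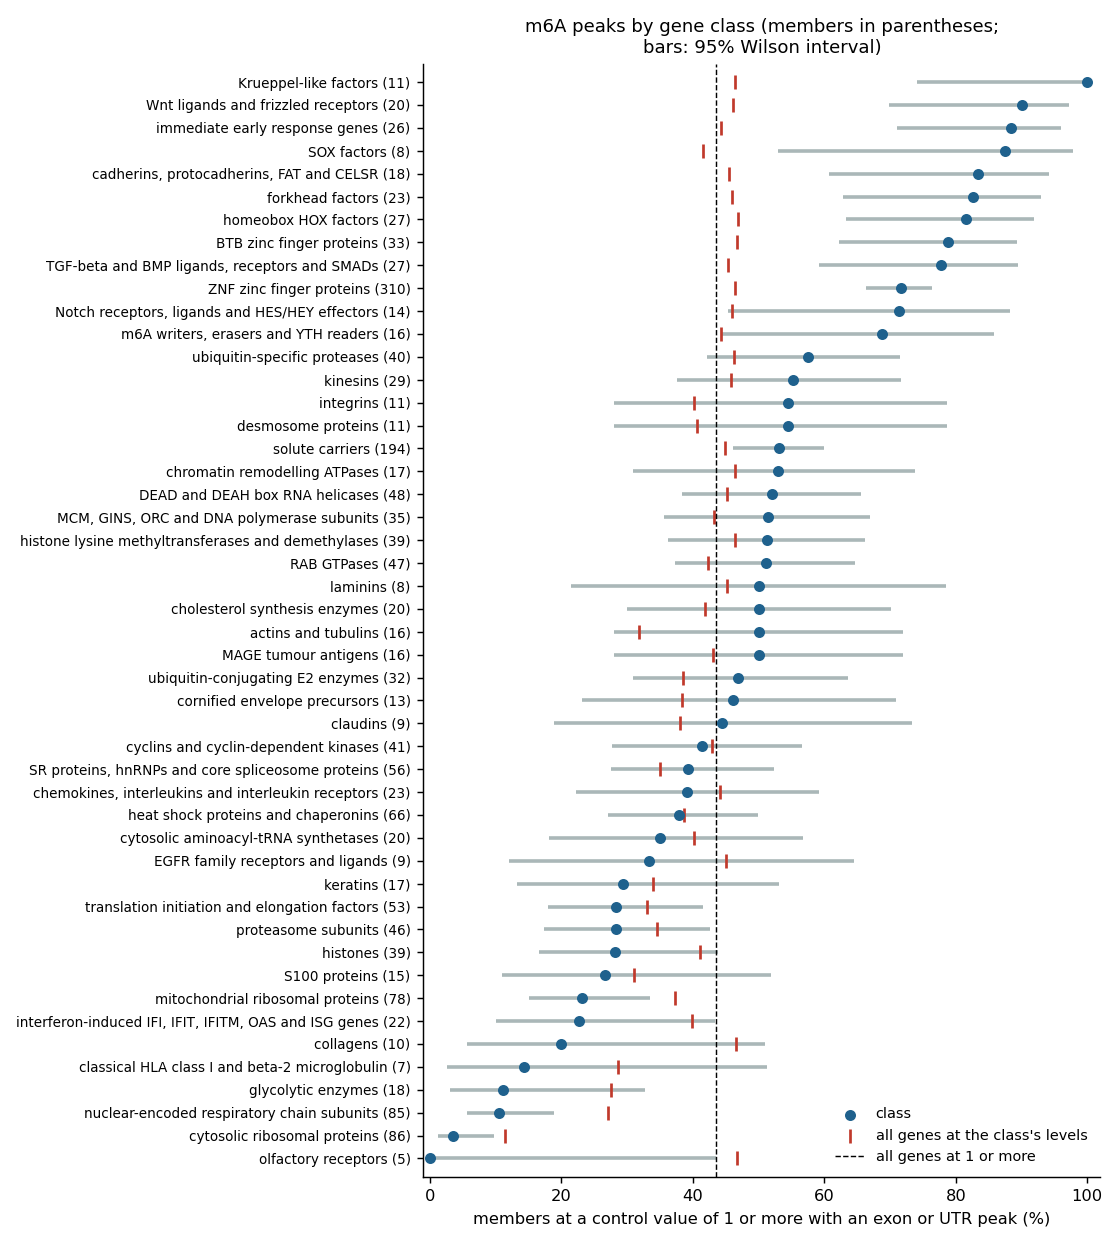
Points give, for each of 48 classes, the percentage of members at 1 or more with an exon or UTR peak, with 95% Wilson intervals as bars and the number of members in parentheses; red ticks give the share of all genes at the same levels and the dashed line the share of all genes at 1 or more. Krueppel-like factors (100%) and Wnt ligands and frizzled receptors (90%) are at the top, ribosomal proteins (3.488%) and olfactory receptors (0%) at the bottom.

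The m6A machinery was itself present in full, all 16 genes at 1 or more, and 11 had a peak (68.75%, interval 44.4 to 85.84; 44.25% at their levels). The eraser ALKBH5 was highest at 200.69 and had none, and the other eraser, FTO (14.94), had none. The catalytic writer METTL3 (20.81) had none, while its partner METTL14 (6.02) had 1, the adaptor WTAP (40.76) 1, ZC3H13 (3.11) 4 and RBM15 (2.09) 3. Of the cytoplasmic readers, YTHDF2 (21.08) and YTHDF3 (6.95) had 3 each and YTHDF1 (45.19) had 1. The nuclear reader YTHDC1 (10.68) had 1 and YTHDC2 (1.61) none. VIRMA (4.76) had none as written and 2 under its older symbol. All 11 marked genes of the 16 had an exon peak, against 25.9% of all members.

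Peaks in 5'UTRs lay close to the annotated start. Of 1842 5'UTR peaks in the list, 1070 (58.09%) were within 200 bases of it, with a median distance of 138. With older symbols replaced, 8.68% of members had such a peak. RefSeq starts were found for 9425 members (80.98%), and genes were set apart by the first base of their listed starts. Peak distances are those of the peak list, to its own annotated start, which can differ from the RefSeq start. A near-start peak was listed for 408 of 3504 genes that start with A (11.64%, interval 10.62 to 12.75), 231 of 3129 that start with G (7.383%, 6.518 to 8.352) and 41 of 811 that start with C (5.055%, 3.748 to 6.786). Genes whose listed starts differ in the first base were at 7.161%. The share was highest for A in each of the 4 level ranges from 1 to 1000, for example 15.15% for A, 7.805% for G and 5.405% for C at 100 to 1000. At 1000 and above the groups held 15, 13 and 40 genes with 0, 1 and 0 near-start peaks. Coding exon peaks differed less between first bases, with 29.17% for A, 28.03% for G and 26.02% for C. How much of the near-start signal is m6Am next to the cap was not tested.

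The pyrimidine tract of the ribosomal starts shown above was sought as C followed by 4 bases that are each C or T, at position 1 of any listed start and on the strand of the gene. It was found in 721 members with a RefSeq start (7.65%) and in 5.142% of all 27305 symbols of the RefSeq start table. Of members with the tract 38.7% had an exon or UTR peak and 4.854% a near-start peak, against 48.39% and 9.042% of members without it. Without ribosomal protein genes, the 673 others with the tract had 41.31% and 5.201%, at a median value of 14.59 against 11 for members without the tract. Every tract begins with C, and the 811 genes that start with C had 39.95% and 5.055%. What the tract adds to the first base was not tested. Only 68 of 86 ribosomal protein genes (79.07%) had a RefSeq start in the table, so no share of them with the tract is given. A match of letters describes the start and does not show that the tract acts there.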

How the data were processed

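TopHat2, an aligner, and HTSeq, a read counter, were applied to every sample, and MACS2, a peak caller, to the input and immunoprecipitated libraries, per the submitters' processing notes, which give no versions. The deposited table gives the authors' expression signal per gene, with 2 decimals and no unit in its header, so no count test was used. It lists 18249 genes. Of these, 25 had symbols turned into dates and were left out. Symbols were current in the reference for 17412 genes, older for 459 and unmatched for 353. The deposited peak list gives a gene symbol, a location category, coordinates and the distance to the start, without scores. The notes name hg38, but 10.66% of 9009 exon and UTR peaks lay inside their gene's span on GRCh38.p14, so the build of the peaks is not taken to be hg38 and coordinates are given as listed.

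Genes at 1 or more were joined to exon and UTR peaks by symbol as written, and shares have 95% Wilson intervals. Level ranges were 1 to 5, 5 to 20, 20 to 100, 100 to 1000, and 1000 and above. The members and gene lists were chosen with earlier results of these data known, and the symbols in some classes were corrected after their values were seen. Genes named are the 25 highest, the 10 highest with and without a peak, the 10 with most peaks, the highest with and without a peak of each class, all markers and the m6A machinery. Other genes, among them further class members, were named after their values were seen. A planned check of protein length was replaced by genomic span. Start sequences come from RefSeq. The joins were tested on simulated data. Tools were Python 3.11.15, pandas 2.3.3, numpy 2.4.6, scipy 1.17.1 and matplotlib 3.10.9.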

Additional observations from a re-analysis of the deposited data

Results flagged for a closer look

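Signals were also listed outside the genes at 1 or more. In the 6586 genes under 1, 676 (10.26%) had an exon or UTR peak, 1023 peaks in all, and 18 of these genes were at 0. Of 3602 genes under 0.1, 85 had a peak, 25 had at least 2 and 3 had at least 5. Those 3 were filaggrin (FLG, 0.05) with 10 peaks, hornerin (HRNR, 0.02) with 7 and ZNF469 (0) with 11. FLG and HRNR encode repeat-rich proteins of the cornified layer. The FLG peaks lay at chr1:152276152-152285196, with centres 904 to 1053 bases apart (median 993). Those of HRNR lay at chr1:152186280-152193521, 323.5 to 2602 bases apart (median 911.2), and those of ZNF469 at chr16:88494113-88505916, 456.5 to 2136 apart (median 951.8). Levels of these genes in the input library were not analysed here.

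Among genes at 1 or more, 918 (7.888%) had peaks in introns and none in an exon or UTR. AHNAK (30), a giant scaffold protein, had 11 intron peaks and 1 upstream of its start, whereas its relative AHNAK2 had 13 exon and UTR peaks. These categories are as the peak list gives them. Its annotation is not named, so an intron label may depend on the isoform used, which was not tested.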

How the results depend on the processing

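Of 1233 recomputed values 1 changed sign, though shares and counts have no sign to change. The share of genes with a peak was 42.59% with a threshold of 0.5, 42.42% with 5, 34.61% with any value above 0, 37.19% without 5'UTR peaks, 53.82% with peaks of any location and 47.14% with older symbols replaced. With a threshold of 5, coding exons held 47.74% of peaks, 5'UTRs 20.43% and 3'UTRs 31.83%, and the coefficient of level and peak number was -0.1826. With any value above 0 it reversed to 0.181 over all genes and was -0.1149 over genes with a peak, coding exons held 54.3% and 5'UTRs 15.84%. From the lowest level range to the highest, shares were 42.78%, 42.71%, 31.03%, 11.21% and 1.98% without 5'UTR peaks, and 54.98%, 58.9%, 51.27%, 36.15% and 14.85% with peaks of any location; with older symbols replaced the lowest 3 were 50.25%, 52.7% and 43.48%. These range shares, the spans and other near-start distances were chosen after seeing the data. Of 287 recomputed class shares, 266 stayed inside their interval and 21 did not. Wnt genes were at 100% with a threshold of 5. ZNF genes were at 55.85% with any value above 0 and at 77.74% with any location, ribosomal proteins at 15.12% and respiratory subunits at 21.18% with any location, and histone methyltransferases and demethylases at 71.79% with older symbols replaced. Without GAPDH glycolytic enzymes held 1.147% of the sum. Within 100 bases of the start, near-start shares were 8.818% for A, 3.699% for C and 5.209% for G, and within 500 bases 13.58% for A and 8.821% for G. Beyond what each setting includes by construction, the cause was not tested. Classes that stayed on the same side of the all-genes share were 47 of 48 with a threshold of 0.5, 46 of 47 with 5 and 40 of 48 with any value above 0. They were 41 of 48 without 5'UTR peaks, and 45 of 48 each with any location and with older symbols. Protein length was not run. No paired analysis was possible because there was 1 control library and 1 peak list, and no replicate could be left out. Depth is unknown, so an unlisted peak in a low gene may be a peak that was not detectable.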

Other observations

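Peaks were also listed for transporters, traffic and cytoskeletal genes. Of 194 solute carriers, the largest group of membrane transporters, 103 had a peak (53.09%, interval 46.08 to 59.99; 44.85% at their levels). The amino acid transporter SLC7A5 (154.26) had 2, and the mitochondrial ADP/ATP carrier SLC25A5, highest at 734.74, had none. Cholesterol synthesis enzymes had a peak in 10 of 20 (50%, interval 29.93 to 70.07; 41.78% at their levels). Ubiquitin-specific proteases had 23 of 40 (57.5%; 46.27%), with 5 peaks in USP31 (15.06). RAB GTPases of vesicle traffic had 24 of 47 (51.06%; 42.25%), and kinesin motors 16 of 29 (55.17%; 45.74%). Actins and tubulins had 8 of 16 (interval 28 to 72; 31.76%), none of them among the 4 highest, ACTB (2102.02), TUBA1B (1973.61), ACTG1 (1146.6) and TUBA1C (675.54); tubulin copies are similar, so assignment among them is uncertain.

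Cell cycle genes were likewise mixed. Cyclins and cyclin-dependent kinases had a peak in 17 of 41 (41.46%; 42.95% at their levels). CDK4 (146.17), the kinase partner of CCND1, and the mitotic CCNB1 (41.77) and CDK1 (40.45) had none, while the transcriptional kinases CDK13 (5.44) and CDK12 (4.23) had 5 and 3. Replication proteins had 18 of 35 (51.43%; 43.26%), DEAD and DEAH box helicases 25 of 48 (52.08%; 45.15%) and chromatin remodelling ATPases 9 of 17 (52.94%; 46.36%). MAGE tumour antigens, whose A family is normally silent outside the germ line, were present: MAGEA4 was at 144.55, MAGEA3 at 51.79 and MAGEA6 at 46.84, each with 1 peak. The last 2 are near-identical copies. In all, 8 of 16 MAGE genes had a peak (50%, interval 28 to 72; 43.02% at their levels).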
